A study of Homo sapiens with 6 samples.

Results

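The negative feedback genes of MAP kinase signalling examined here were 7 dual-specificity phosphatases (DUSP1, DUSP4, DUSP5, DUSP6, DUSP7, DUSP10, and DUSP16) and 3 inhibitors of the Sprouty type (SPRY2, SPRY4, and SPRED1). They were chosen by name, with earlier results of these data known. The Ensembl identifiers of all 10 were found among the 29483 genes of the deposited expression table. All 10 also passed the filter on low values and belonged to the 13599 genes tested. The 6 libraries came from HK-2, a permanent human cell line derived from the proximal tubule of the kidney. All cells were kept for 7 days in high glucose (HG) medium at 25 mM and for 1 more day in HG either with 10 μM TEPP-46, a small molecule activator of the glycolytic enzyme PKM2 (case group, 3 replicates), or without it (control group, 3 replicates). No library of cells in normal glucose was analysed here. The paper calls the replicates independent and separately treated without saying how the cultures were kept apart. All came from 1 cell line, so that P-values measure the spread between these libraries. Expression was given as FPKM, a read number corrected for gene length and library depth, and whole reads recovered from these values summed to at least 18501889, 17795570, and 17254377 in control replicates 1, 2, and 3 and to at least 16594162, 15932516, and 15251132 in case replicates 1, 2, and 3.

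In the MAP kinase cascades, receptors and stress signals activate ERK, JNK, and p38 through upstream kinases, and the active kinases induce genes whose products switch the cascades off again. The dual-specificity phosphatases of this family remove both phosphates from the activation loop of MAP kinases, while Sprouty and Spred proteins act earlier, between growth factor receptors and RAF. Because several of these genes are induced within the same cascades, their transcripts are widely used as a readout of ERK, JNK, and p38 signalling, and in proximal tubular cells these cascades respond to growth factors, high glucose, and cell stress.

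Expression of 5 of the 10 feedback genes rose with TEPP-46 and none fell. The genes that rose were DUSP6, SPRY4, DUSP5, DUSP1, and SPRY2, with log2 fold changes from 1.18 down to 0.39. Log2 fold changes are case minus control, fitted with limma on log2(FPKM + 0.1) after division of each library by a scaling factor, and a gene was taken to rise or fall at an adjusted p of at most 0.05 over all tested genes. When single libraries were left out, 2 of the 10 genes were called without control replicate 1 or 2 and 3 without control replicate 3 or case replicate 3, and under scaling to a common FPKM sum (TPM) 3 were called. The number of all genes called fell as well, from 1792 to 101, 72, and 77 without control replicate 1, 2, or 3 and to 176 without case replicate 3. With all libraries, 13.2% of all tested genes changed, 7.34% rose and 5.84% fell. The median log2 fold change was 0.44 over the 10 feedback genes and −0.00 over all tested genes. The case and control values did not overlap in 6 of the 10 genes, all of them higher in the case group, whereas they did not overlap in either direction in 39.9% of all tested genes. More RNA in each cell and more cells that express a gene cannot be told apart in these bulk libraries.

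The stretches upstream of the starts of DUSP1, DUSP6, and SPRY2 are shown because these genes rose and because response elements in such stretches are the usual route by which MAP kinase signalling reaches them. They are the 250 bases before each start in the RefSeq annotation of GRCh38.p14, at chr5:172771196-172771445 (DUSP1), chr12:89352502-89352751 (DUSP6), and chr13:80341127-80341376 (SPRY2). All are on the minus strand, are written 5′ to 3′, and share no base with an annotated exon. For SPRY2, which has 3 such stretches, the one next to the outermost start is shown. SPRY4 also rose, but its stretch is not printed because 170 of its bases lie in annotated exons. Capitals mark matches to the motifs searched on both strands, which are named after the sequences.
DUSP1: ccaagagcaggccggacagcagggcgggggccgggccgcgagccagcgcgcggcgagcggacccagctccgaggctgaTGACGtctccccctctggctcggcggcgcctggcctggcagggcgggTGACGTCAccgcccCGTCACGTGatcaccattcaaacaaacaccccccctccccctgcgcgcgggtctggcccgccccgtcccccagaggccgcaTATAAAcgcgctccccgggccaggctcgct
DUSP6: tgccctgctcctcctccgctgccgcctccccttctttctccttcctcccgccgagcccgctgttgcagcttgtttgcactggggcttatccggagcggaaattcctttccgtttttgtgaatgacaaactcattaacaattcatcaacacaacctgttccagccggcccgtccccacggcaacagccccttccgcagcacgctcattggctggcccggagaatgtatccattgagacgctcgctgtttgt
SPRY2: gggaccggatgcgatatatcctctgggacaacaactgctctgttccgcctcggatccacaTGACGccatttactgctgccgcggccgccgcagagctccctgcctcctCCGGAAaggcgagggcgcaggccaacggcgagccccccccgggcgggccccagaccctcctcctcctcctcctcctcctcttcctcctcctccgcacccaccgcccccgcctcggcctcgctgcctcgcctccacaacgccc

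The motifs were the cAMP response element TGACGTCA, its half-site TGACG (which also lies inside each full element), the ETS motif CCGGAA, the AP-1 motif TGANTCA, the E-box CACGTG, the TATA motif TATAAA, and the CArG box, and they were chosen after these stretches had been read. The DUSP1 stretch held a full cAMP response element that begins 125 bases before the start, an E-box at 108 bases that overlaps a half-site at 111 bases, a further half-site at 172 bases, and a TATA motif at 30 bases. The SPRY2 stretch shown held a half-site at 190 bases and an ETS motif at 142 bases, while the other 2 SPRY2 stretches held no match. The SPRY4 stretch held a half-site at 68 bases, and the DUSP6 stretch held no match to any of the motifs. Among 34943 stretches of the same length in this annotation, 1.63% held the full cAMP response element, 21.2% the half-site, 14.5% the ETS motif, 6.59% the AP-1 motif, 6.32% the E-box, 10.8% the TATA motif, and 1.17% the CArG box. RefSeq stretches were matched by symbol for 8 of the 10 genes, all but DUSP4 and DUSP5, and those of DUSP7, DUSP10, DUSP16, and SPRED1 held no match to any of the motifs. A match describes the letters only, and other spellings of these motifs were not searched.

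Among the 10 genes DUSP6, which encodes a cytoplasmic phosphatase with a strong preference for ERK, had the largest change (minus strand, chr12:89347235-89352501 of GRCh38, as are all positions of genes here). It measured 5.04, 4.38, and 4.21 in control replicates 1, 2, and 3 and 9.20, 9.86, and 10.5 FPKM in case replicates 1, 2, and 3. All case libraries lay far above all control libraries, and DUSP6 was called under each of the 18 alternative settings. The mean rose from 4.55 ± 0.44 to 9.84 ± 0.64 FPKM (SD, n = 3 per group), and the log2 fold change was 1.18 (SE 0.10, 95% interval 0.95 to 1.41, limma adjusted p = 0.00197). Behind these values were 339 to 435 reads per control library and 712 to 745 reads per case library. An annotated antisense long noncoding RNA shares 1105 exonic bases with DUSP6, and its mean was 0.00902 FPKM.

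DUSP5 encodes a nuclear phosphatase that is selective for ERK and that is itself induced by ERK activity (plus strand, chr10:110497907-110511533). The control libraries gave 43.6, 44.1, and 45.0 FPKM and the case libraries 71.1, 68.5, and 76.1 FPKM. The control libraries were almost equal, and every case library stood well above them. The mean rose from 44.2 ± 0.73 to 71.9 ± 3.87 FPKM (SD, n = 3 per group), with a log2 fold change of 0.78 (SE 0.08, limma adjusted p = 0.00368). DUSP5, too, was called under each of the 18 alternative settings.

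DUSP1 encodes a nuclear phosphatase that acts on p38, JNK, and ERK, and it is an immediate early gene of growth factor and stress signals (minus strand, chr5:172768096-172771195). It was the most abundant of the 10 genes in both groups. Control replicates 1, 2, and 3 measured 66.5, 65.2, and 75.3 FPKM, and case replicates 1, 2, and 3 measured 105.6, 84.3, and 87.5 FPKM. Case replicate 1 stood above the other case libraries, control replicate 3 stood above the other control libraries, and the groups did not overlap. The mean rose from 69.0 ± 5.51 to 92.5 ± 11.5 FPKM (SD, n = 3 per group), with a log2 fold change of 0.49 (SE 0.12, limma adjusted p = 0.0365). This call was lost in 7 of the 18 alternative settings. Among them were those without control replicate 1, 2, or 3 (limma adjusted p = 0.13, 0.146, and 0.0904) or case replicate 3 (0.0979), with a log2 fold change between 0.29 and 0.58 in all of the settings.

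DUSP10 (minus strand, chr1:221701424-221742089) and DUSP16 (minus strand, chr12:12473282-12562863) encode phosphatases with a preference for JNK and p38, and neither passed the threshold. The FPKM values of DUSP10 were 1.84, 2.11, and 1.56 in the control group and 2.34, 2.87, and 2.32 in the case group. All case libraries lay above all control libraries, and the log2 fold change of 0.51 (SE 0.15, 95% interval 0.17 to 0.84) was close to that of DUSP1, but the limma adjusted p was 0.0559, and 79 to 134 reads per library stood behind the values. DUSP16 was the only one of the 10 genes with a negative estimate, except under TPM scaling, where DUSP4, DUSP7, and SPRED1 turned negative and the median of all tested genes moved to −0.19, and without case replicate 1, where DUSP4 was at −0.0038. It measured 2.30, 2.29, and 2.53 FPKM in the control group and 1.72, 2.45, and 1.80 FPKM in the case group, so that case replicate 2 lay among the controls and the other case libraries lay below them. The log2 fold change was −0.18 with a 95% interval from −0.51 to 0.15.

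DUSP4 (minus strand, chr8:29333064-29350684) encodes a nuclear phosphatase of ERK, JNK, and p38, DUSP7 (minus strand, chr3:52048919-52056571) encodes a cytoplasmic phosphatase of ERK, and in both genes the groups overlapped. DUSP4 gave 4.40, 4.28, and 4.17 FPKM in the control group and 5.01, 4.22, and 4.01 FPKM in the case group. DUSP7 gave 1.85, 1.88, and 1.81 FPKM in the control group and 2.22, 1.81, and 1.77 FPKM in the case group. In both genes case replicate 1 was high and the other case libraries were at the level of the control group. The log2 fold changes were 0.11 (95% interval −0.16 to 0.39) for DUSP4 and 0.13 (95% interval −0.20 to 0.46) for DUSP7.

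**Figure D1:**
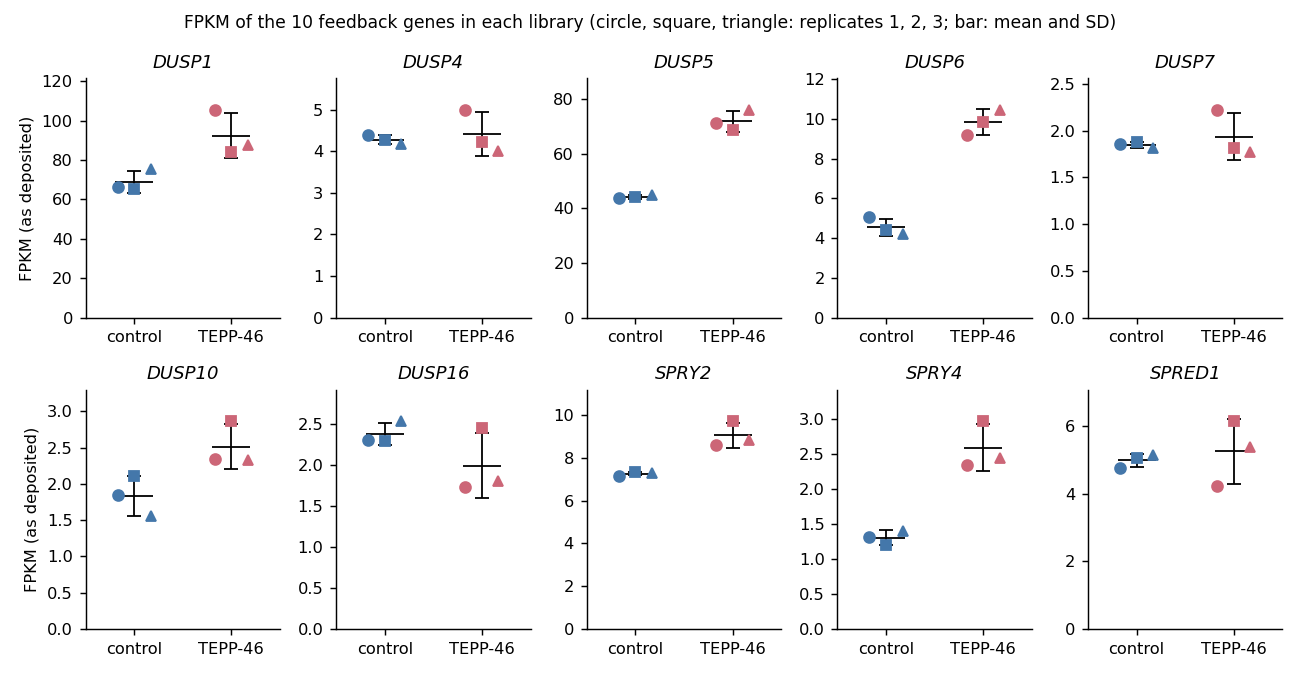
Expression of the 10 feedback genes in each library, in FPKM as deposited on axes that start at 0, with control libraries in blue, libraries treated with TEPP-46 in red, and the bar giving mean and SD of 3 replicates. In DUSP5, DUSP6, SPRY2, and SPRY4 the case libraries stood clear of a tight control group, whereas in DUSP4, DUSP7, DUSP16, and SPRED1 the groups overlapped.

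Sprouty proteins block growth factor receptors from activating RAS and RAF. SPRY4 (minus strand, chr5:142310427-142326455) was the least abundant of the 10 genes in the control group. It gave 1.31, 1.19, and 1.41 FPKM there and 2.35, 2.97, and 2.45 FPKM in the case group. Every case library was clearly above every control library, and case replicate 2 was the highest. The mean rose from 1.30 ± 0.11 to 2.59 ± 0.34 FPKM (SD, n = 3 per group) and the log2 fold change was 1.01 (SE 0.13, limma adjusted p = 0.00937), on 127 to 145 reads per control library and 223 to 283 reads per case library. The call was lost without control replicate 1 (limma adjusted p = 0.0528) or control replicate 2 (0.0584).

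SPRY2 (minus strand, chr13:80335976-80341126) rose by a smaller step. Its control libraries had 7.17, 7.35, and 7.27 FPKM and its case libraries 8.59, 9.72, and 8.85 FPKM. The control libraries were almost equal and all case libraries lay above them, again with case replicate 2 the highest. The log2 fold change was 0.39 (SE 0.08, limma adjusted p = 0.0226), and the recovered reads were 384 to 406 per control library and 413 to 474 per case library. The limma adjusted p was 0.105, 0.108, and 0.0991 without control replicate 1, 2, or 3, 0.0659 without case replicate 3, and 0.179 under TPM scaling. In the same order, the log2 fold change was 0.38, 0.39, 0.39, and 0.41 without these libraries and 0.19 under TPM scaling.

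SPRED1 anchors the RAS GTPase-activating protein neurofibromin at the membrane (plus strand, chr15:38252836-38357249). It gave 4.77, 5.07, and 5.14 FPKM in the control group and 4.25, 6.16, and 5.39 FPKM in the case group. The case libraries lay on both sides of the control group, replicate 1 below it and replicates 2 and 3 above it. The log2 fold change was 0.14 (95% interval −0.15 to 0.42, limma adjusted p = 0.474).

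**Figure D2:**
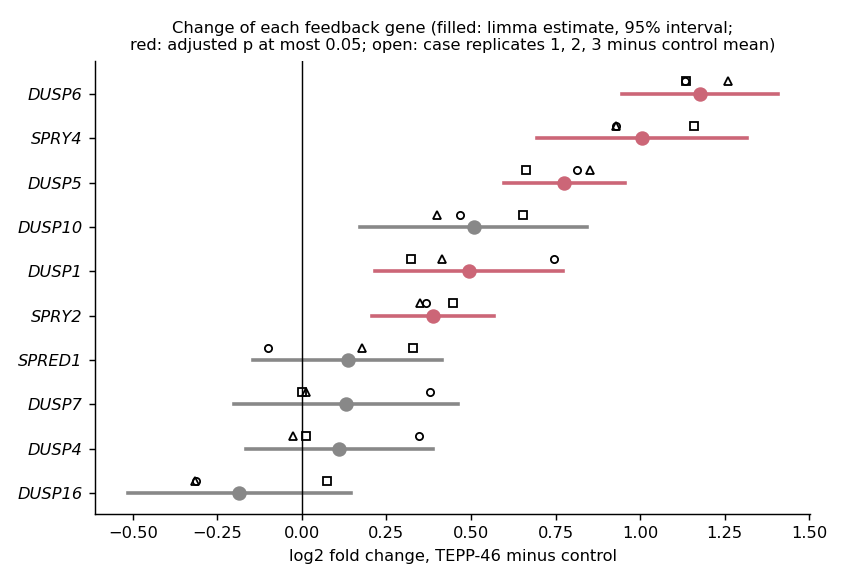
Log2 fold change of each feedback gene, case minus control, as the limma estimate with its 95% interval (filled circle and bar, red at an adjusted p of at most 0.05 and grey otherwise) and as each case library minus the control mean (open circle, square, and triangle for replicates 1, 2, and 3). DUSP6 and SPRY4 lay near 1, the case libraries of DUSP10 were all above 0 with an interval from 0.17 to 0.84, and those of SPRED1 and DUSP16 fell on both sides of 0.

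FPKM values are scaled to gene length, so levels can be set beside each other between genes. In the control group DUSP1 (69.0 FPKM) and DUSP5 (44.2 FPKM) lay far above the others and did not overlap each other. SPRY2 followed at 7.26 FPKM, and SPRED1 (4.99 FPKM), DUSP6 (4.55 FPKM), and DUSP4 (4.28 FPKM) came next, with overlapping libraries between each of these neighbours. DUSP16 (2.37 FPKM) lay above DUSP7 (1.85 FPKM) and DUSP10 (1.84 FPKM), which overlapped, and SPRY4 (1.30 FPKM) was lowest. In the case group the order of DUSP1 (92.5 FPKM) and DUSP5 (71.9 FPKM) was the same, while DUSP6 (9.84 FPKM) came to the level of SPRY2 (9.05 FPKM), with overlapping libraries. SPRED1 (5.26 FPKM) and DUSP4 (4.41 FPKM) overlapped, and SPRY4 moved from the last place to 2.59 FPKM, beside DUSP10 (2.51 FPKM), DUSP16 (1.99 FPKM), and DUSP7 (1.94 FPKM), each overlapping its neighbour in this order.

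Most transcripts on a list of genes that ERK activity is known to raise were higher in the case group as well. Of the 10 genes on the list of ERK outputs, 9 were tested, 7 rose, and 1 fell, beside 7.34% and 5.84% of all tested genes. Their median log2 fold change was 0.48. This list, too, was chosen with earlier results of these data known, so these counts are descriptive and give no independent support. EGR1, an immediate early zinc finger transcription factor, gave 21.6, 21.7, and 24.1 FPKM in the control group and 39.2, 40.9, and 37.9 FPKM in the case group. The libraries of EGR1 were tight within each group and far apart between them, with a log2 fold change of 0.88 (SE 0.08, limma adjusted p = 0.00209). IER3, a stress and growth factor response gene, rose by 0.69 (SE 0.08) on the log2 scale, from 349 to 535 FPKM. The AP-1 subunits FOS and FOSL1 rose by 0.60 (SE 0.15) and 0.57 (SE 0.07), FOS at a low level (1.49 to 2.17 FPKM) and FOSL1 at a high one (122 to 172 FPKM).

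EGR1, IER3, FOS, and FOSL1 were named as the called genes with the largest changes, and the remaining outputs were named after their values had been seen. PHLDA1 (0.48, SE 0.08), the receptor gene EPHA2 (0.41, SE 0.11), and the ETS factor gene ETV5 (0.35, SE 0.08) rose by smaller steps on the log2 scale. ETV4, another ETS factor gene, had a log2 fold change of 0.36 (SE 0.10) without passing the threshold (limma adjusted p = 0.056), and EPHA4 was too low to be tested, with 0.369, 0.347, and 0.358 FPKM in the control group and lower values of 0.253, 0.256, and 0.103 FPKM in the case group. CCND1, the gene of the cell cycle regulator cyclin D1, was the only tested gene of the list with a negative estimate and fell by 0.45 (SE 0.08), with 43.4, 44.8, and 45.2 FPKM in the control group against 29.1, 35.0, and 28.9 FPKM in the case group. The calls of this list depended on the processing and on single libraries. With all 6 libraries, 4 of its genes were called under TPM scaling and 5 without scaling, without the filter on low values, or without the intensity trend, instead of 8. EPHA2 and FOS each lost the call in 11 of the 18 alternative settings and ETV5 in 10. With the replicate number as a block, 6 were called, since EPHA2 (limma adjusted p = 0.0508), ETV5 (0.0509), and FOS (0.0535) were lost and ETV4 (0.0441) was gained. Without control replicate 1, 2, or 3 only 2, 1, and 1 of its genes were called, and without case replicate 3 only 3 were, although EGR1 was called under each of the 18 alternative settings. After each library was corrected for its trend with genomic span, 7 were called, and FOS (log2 fold change 0.47, limma adjusted p = 0.0702) was lost. EGR1 moved to 0.76, IER3 to 0.53, FOSL1 to 0.48, and PHLDA1 to 0.36. EPHA2 was then at 0.40, ETV5 at 0.43, ETV4 at 0.41, and CCND1 at −0.51.

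Related phosphatase and inhibitor genes outside the set of 10, not all of them feedback genes, were called at a share near the 13.2% of all tested genes. Of the 3 other MAP kinase phosphatases, 2 were tested and neither passed the threshold. DUSP9, a cytoplasmic phosphatase of ERK, gave 4.31, 4.22, and 5.74 FPKM in the control group and 4.03, 2.58, and 2.51 FPKM in the case group (log2 fold change −0.57, SE 0.21, limma adjusted p = 0.108). Case replicate 1 was close to the control group and the other case libraries lay below it, and DUSP9 was called lower without case replicate 1 (−0.81, limma adjusted p = 0.0202) and under TPM scaling (−0.77, 0.0329). Of 11 atypical dual-specificity phosphatases, which lack the MAP kinase binding domain, 8 were tested, 1 rose, and none fell. DUSP14 was the one that rose, from 16.8 ± 0.14 to 23.4 ± 0.63 FPKM (SD, n = 3 per group), a log2 fold change of 0.55 (SE 0.07, limma adjusted p = 0.00879). None of the 3 tested genes among 4 other Sprouty and Spred genes passed the threshold. The largest estimate was that of SPRED3, −0.36 (SE 0.13, limma adjusted p = 0.106), which was −0.22 without case replicate 3 and was called under TPM scaling (−0.55, 0.037). Of 6 other inhibitors of receptors or RAS, 1 fell and none rose, and their median log2 fold change was −0.46. Case and control values did not overlap in 2 of these genes that were higher and 3 that were lower. Over all tested genes, they did not overlap in either direction in 39.9%. IL17RD (log2 fold change −0.61, SE 0.25, limma adjusted p = 0.13) and LRIG1 (−0.43, SE 0.17, 0.12) were lower in all case libraries without passing the threshold. Both were named after their values had been seen. IL17RD was low, with a mean of 0.848 FPKM in the control group and 0.499 FPKM in the case group. ERRFI1, an inhibitor of the EGF receptor named after its values had been seen, was higher in all case libraries (log2 fold change 0.38, SE 0.11, limma adjusted p = 0.0543) and was called in 4 of the 18 alternative settings, those with the replicate block (0.0493), with voom (0.0178), and without case replicate 1 (0.0196) or 2 (0.0428). NF1, which encodes neurofibromin, the partner of SPRED1, had 4.11, 4.37, and 4.24 FPKM in the control group and 1.56, 2.90, and 2.08 FPKM in the case group. All case libraries of NF1 lay below the control group and spread widely, and NF1 fell by 0.90 (SE 0.18, limma adjusted p = 0.0229). NF1 spans 287 kilobases, and its log2 fold change was −0.66 (limma adjusted p = 0.0212) once each library was corrected for its trend with genomic span. When 1 control library was left out, the limma adjusted p was 0.0568 to 0.0636 for DUSP14 and 0.0851 to 0.0978 for NF1, and without case replicate 3 it was 0.0896 for NF1.

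Genes of the kinase cascades themselves changed in both directions. Of 16 genes of the RAS, RAF, MEK, and ERK core, 1 rose and 1 fell, and 1 rose and 1 fell in each of the kinase lists that follow, beside 7.34% and 5.84% of all tested genes, a share of calls near the background. The small GTPase gene HRAS rose from 23.9 ± 2.31 to 33.3 ± 5.09 FPKM, with a log2 fold change of 0.55 (SE 0.14), and the adaptor gene SHC1 fell from 208 ± 5.10 to 145 ± 22.0 FPKM, with a log2 fold change of −0.46 (SE 0.12; SD, n = 3 per group). Of 12 tested genes of the JNK and p38 cascades, MAP2K3, a kinase that activates p38, rose by 0.39 (SE 0.09) and MAP3K20, a stress-activated upstream kinase, fell by 0.55 (SE 0.13) on the log2 scale. Of 10 kinases downstream of MAP kinases, MAPKAPK5 rose by 0.55 (SE 0.11) and RPS6KA2, a ribosomal S6 kinase, fell by 0.41 (SE 0.10). None of these 6 calls held when control replicate 1, 2, or 3 or case replicate 3 was left out (limma adjusted p from 0.0778 to 0.1495). Once each library was corrected for its trend with genomic span, the log2 fold change was −0.15 (limma adjusted p = 0.37) for RPS6KA2, which spans 497 kilobases, and −0.35 (0.0397) for MAP3K20, which spans 193 kilobases. The median log2 fold changes of these 3 lists were −0.21, −0.07, and −0.08.

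**Figure D3:**
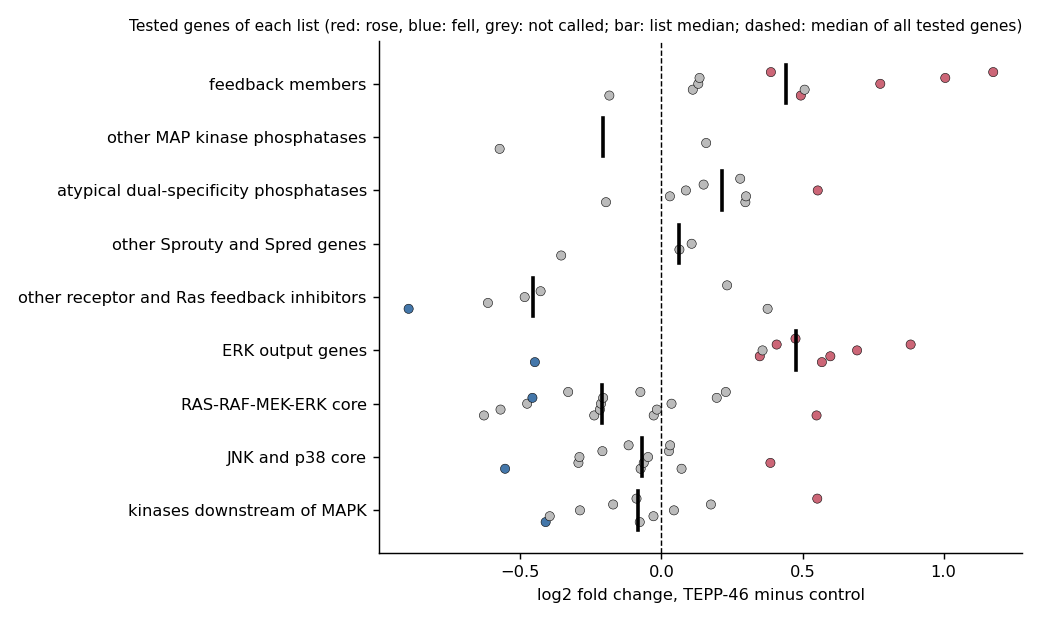
Log2 fold changes, case minus control, of the tested genes on each list (points, red for genes that rose, blue for genes that fell, grey for genes not called), with the list median as a bar and the median of all tested genes as a dashed line. The medians of the feedback genes (0.44) and the ERK outputs (0.48) lay to the right of 0, while those of the kinase lists lay between −0.21 and −0.07.

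The genes with the pattern most like that of DUSP1 or DUSP6 were sought among the tested genes outside the lists, by Pearson correlation of the scaled log2 values over the 6 libraries. For DUSP1 the closest were CD40 (r = 0.996), GLRX3 (r = 0.995), and TPRA1 (r = 0.995), and 284 genes had an r above 0.95. For DUSP6 the closest were MT-CO2, RPS18, and PCBD1 (each r = 0.998), and 472 genes had an r above 0.95. The 6 points shared library, treatment, and scaling, so that a gene which differs between the groups and is tight within them gives a high r.

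The response of a gene moved with its genomic span, the distance from its start to its end. When the annotated tested genes were divided into 5 equal groups by span, the median log2 fold change went from 0.15 in the shortest group to −0.19 in the longest, and the share of genes that rose from 9.30% to 2.78%. The difference was widest in case replicate 1 (0.26 to −0.31) and narrowest in case replicate 2 (0.03 to −0.07). DUSP1, DUSP6, and SPRY2 belonged to the shortest group, DUSP5, DUSP7, and SPRY4 to the next, DUSP4 to the middle one, DUSP10 to the one after, and DUSP16 and SPRED1 to the longest. After each library was corrected for its trend with span, an alternative added after the data had been seen, DUSP1, DUSP5, DUSP6, and SPRY4 were still called, DUSP10 was called as well (log2 fold change 0.53, limma adjusted p = 0.0422), and SPRY2 was not (0.27, limma adjusted p = 0.0867). Of the genes not called in either case, SPRED1 moved to 0.29 (limma adjusted p = 0.0683), DUSP4 to 0.07, DUSP7 to 0.03, and DUSP16 to −0.05.

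**Figure D4:**
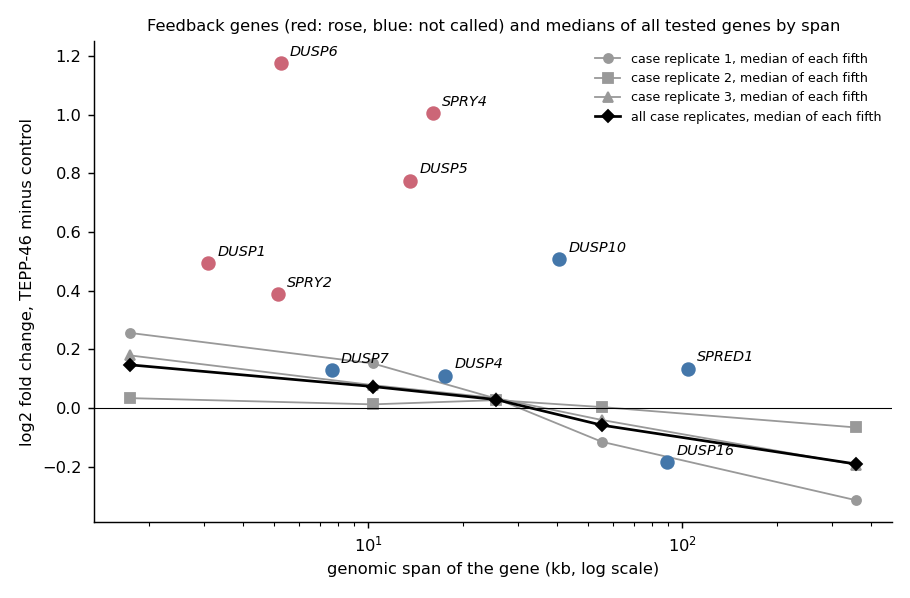
Log2 fold change, case minus control, against genomic span in kilobases on a log axis, with the 10 feedback genes as labelled points (red for genes that rose, blue for genes not called) and the median of all tested genes in each of the 5 groups as black diamonds, with grey markers for each case replicate. The medians went from 0.15 to −0.19 along the axis, and DUSP6, SPRY4, and DUSP5 lay well above them.

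The cell type was checked against marker genes. The epithelial keratin genes KRT8, KRT18, and KRT19 were abundant in every library (158 to 384 FPKM) and none of them passed the threshold, although the case values of KRT8 all lay below the control values (log2 fold change −0.27, limma adjusted p = 0.125). The proximal tubule markers examined (PAX8, GGT1, ANPEP, AQP1, LRP2, CUBN, and SLC34A1) were at or near 0, the highest value being 0.206 FPKM, so that the defining transport and brush border genes of the proximal tubule were absent or nearly so from this line. The 3 endothelial markers summed to at most 0.065 FPKM in any library and the leukocyte markers LYZ and CD68 to at most 0.0326 FPKM, while the other leukocyte markers and the fibroblast markers were not analysed here.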

How the data were processed

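As described by the authors, reads were filtered by quality, aligned to GRCh38.p13 with HISAT2 2.1.0, and counted on genes with HTSeq 0.6.0 (versions per the submitters' processing notes), and the counts were converted to FPKM, the unit of the deposited values. The selection of RNA, the strandedness, and the annotation version are not given in the sources used here, so that reads of a gene and its antisense partner cannot be told apart. The authors tested counts, which the deposited values are not.

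Median-of-ratios factors (0.944 to 1.04) were computed over the 13599 genes whose mean FPKM reached 0.5, since control libraries summed to 289244 to 295418 FPKM and case libraries to 310111 to 323755 FPKM. After division by these factors and addition of 0.1, log2 values were tested in R 4.3.3 with limma 3.58.1 (intensity trend, no covariate, 3 against 3 libraries). P-values were adjusted over all tested genes by the Benjamini-Hochberg method at a threshold of 0.05. Fold changes on this scale understate the change of low genes. On the log2 scale the median SD of replicates was 0.09 for control and 0.19 for case libraries. An exact permutation test of 3 against 3 libraries cannot reach a p below 0.1 and was not used. For all 27922 genes above 0, the smallest whole read numbers in the ratios of the FPKM values were found within 0.02 reads, which makes their sums lower bounds. Reads carry no molecular identifiers and are not independent molecules. Positions came from GENCODE 44. The steps were tested on simulated data that had the same spread in both groups and no trend with genomic span, unlike the data here. A marker gene of the cell type check is not reported here.

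The members and lists were chosen with earlier results of these data known. Named genes were all 10 feedback genes, up to 4 called genes of each other list by size of change (or the 1 with the largest estimate), and the 3 genes most like DUSP1 and DUSP6. The remaining ERK outputs, ERRFI1, IL17RD, and LRIG1 were named after their values had been seen. The alternatives were other pseudocounts (1, 0.01), filters, scalings, and variance models, the replicate number as a block, limma voom on recovered reads with TMM scaling, each library left out, and a correction for genomic span that was added after the data had been seen.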

Additional observations from a re-analysis of the deposited data

How the results depend on the processing

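The number of feedback genes called (5) was 4 to 6 under all alternatives that kept the 6 libraries, except TPM scaling, where it was 3 (DUSP5, DUSP6, and SPRY4). When single libraries were left out it was 2 to 5, lowest without control replicate 1 or 2, where only DUSP5 and DUSP6 were called, and 3 without control replicate 3 or case replicate 3. DUSP10 was called with quantile normalization (limma adjusted p = 0.0352), with voom on recovered reads (0.0419), and after the correction for span. DUSP1 was not called without a filter on low values or without the intensity trend. The estimates of DUSP4, DUSP7, and SPRED1 turned to −0.0842, −0.0593, and −0.0607 with TPM, and that of DUSP4 ranged from −0.0038 without case replicate 1 to 0.18 without case replicate 3. Other estimates that were not called also moved by over 1.5 times without single case libraries, with DUSP7 at 0.0092, SPRED1 at 0.26, and DUSP16 at −0.12 without case replicate 1, SPRED1 at 0.04 and DUSP16 at −0.31 without case replicate 2, and DUSP16 at −0.12 without case replicate 3. With TPM, DUSP16 was at −0.38. The direction of the other 7 genes was the same under all 18 alternatives.

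Over all tested genes, the number called was 1792 and became 524 without a filter on low values, 2770 with TPM, 852 without the intensity trend, and 2831 with voom. It ranged from 72 (without control replicate 2) to 3452 (without case replicate 2), with 101 and 77 without control replicate 1 or 3 and 176 without case replicate 3. The share of calls that were higher in the case group was 55.7% and became 66.2% without the filter, 37.1% without scaling, 13.8% with TPM, and 72.3%, 77.8%, and 76.6% without control replicate 1, 2, or 3. The cause of these changes was not tested.

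Replicate numbers are shared between the groups. The deviations of same-numbered libraries from their group means correlated by 0.063, 0.0999, and −0.0535 across genes. With only a few libraries behind each mean, these values cannot show whether same-numbered libraries were handled together. With the replicate block, 1610 genes (848 higher and 762 lower) and the same 5 feedback genes were called, with 6 ERK outputs in place of 8, and not every library correlated best with its own number. Depth limits DUSP10, DUSP7, DUSP16, and SPRY4 most, which rest on 79 to 283 reads per library.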
